A study of Mus musculus with 12 samples.

Results

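The genes described here are 36 mouse genes of glucose breakdown and of the response to low oxygen, measured by bulk RNA sequencing in 12 mammary tumors. They comprise 24 genes of glucose import, glycolysis, and pyruvate and lactate handling, and 12 genes of the hypoxia response. The genes were listed by symbol and looked up in the count files through their Ensembl identifiers, and all 36 were found among the 52636 genes listed. All 36 also passed the filter on low counts, so that 36 of the 17970 genes tested belong to the set.

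The tumors were grown from 2153L, which the labels give as TNBC (triple-negative breast cancer) from a genetically engineered mouse (GEM), in the mammary fat pads of Balbc females. The tumor cells carried either P53ERTAM, a p53 fused to a tamoxifen-responsive receptor domain, or the empty vector (EV). The mice received either Combo or Vehicle for 8 days. Combo joined ORIN1001, which blocks the RNase activity of the stress sensor IRE1α, at 150 mg/kg daily with docetaxel, a drug that stabilises microtubules, at 20 mg/kg weekly. The 4 groups of 3 tumors each are thus P53ERTAM Combo, P53ERTAM Vehicle, EV Combo and EV Vehicle, and a tumor is named by its group and replicate number. All 4 groups share the 2153L origin, which is 1 tumor line, and it is not stated in the labels whether tamoxifen was given to some or all of the mice. Nothing in the labels says that the 3 tumors of a group came from separate animals or cultures, so p-values measure the spread between these samples, which may in part be technical.

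Glycolysis turns glucose into pyruvate in the cytosol, with phosphofructokinase as its main control point. In many tumors much of the pyruvate is reduced to lactate, which leaves the cell through monocarboxylate transporters. Under low oxygen, prolyl hydroxylases no longer mark the HIF alpha subunits for destruction, and HIF then binds a short core sequence in the promoters of many of these genes. In mouse and human cells p53 restrains several steps of glycolysis, while HIF raises them, and the IRE1α branch of the unfolded protein response has been linked to HIF activity in breast tumors.

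The core of the HIF binding site is short enough to be read by eye in a promoter, and 4 promoters are shown for genes whose calls held in most refits of the comparisons, chosen after their values were seen. Aldoc and Pfkfb4 were higher with P53ERTAM under Vehicle, and Ldha and Pgam1 were lower under Combo in EV tumors. Each window holds 300 bases, 250 before and 50 after a RefSeq transcription start of GRCm38.p6, printed 5′ to 3′ on the gene's strand. Capitals mark the motif ACGTG, whose reverse complement reads CACGT on this strand, and the motif GCGTG, whose reverse complement reads CACGC here. Where ACGTG overlaps its own reverse complement, as in CACGTG, the place counts as 2 matches. The windows lie on the forward strand at chr11:78322823-78323122 for Aldoc, chr9:108991652-108991951 for Pfkfb4, chr7:46845554-46845853 for Ldha and chr19:41911621-41911920 for Pgam1.
Aldoc: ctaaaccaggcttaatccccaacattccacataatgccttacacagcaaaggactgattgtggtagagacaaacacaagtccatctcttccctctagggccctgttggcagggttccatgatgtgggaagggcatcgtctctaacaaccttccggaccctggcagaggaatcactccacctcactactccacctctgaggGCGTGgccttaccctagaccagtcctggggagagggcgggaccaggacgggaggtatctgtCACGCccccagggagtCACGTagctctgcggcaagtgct
Pfkfb4: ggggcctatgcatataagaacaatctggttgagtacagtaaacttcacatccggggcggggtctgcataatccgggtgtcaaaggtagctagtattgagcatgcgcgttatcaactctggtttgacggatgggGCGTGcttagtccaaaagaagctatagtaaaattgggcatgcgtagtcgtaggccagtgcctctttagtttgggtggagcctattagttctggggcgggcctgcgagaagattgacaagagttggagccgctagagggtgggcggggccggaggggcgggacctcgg
Ldha: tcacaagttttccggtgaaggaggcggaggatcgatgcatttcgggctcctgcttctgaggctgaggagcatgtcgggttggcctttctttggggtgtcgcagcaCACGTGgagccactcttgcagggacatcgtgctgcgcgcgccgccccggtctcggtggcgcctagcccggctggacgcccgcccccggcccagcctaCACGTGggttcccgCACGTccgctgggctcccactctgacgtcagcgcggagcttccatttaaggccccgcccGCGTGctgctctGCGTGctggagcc
Pgam1: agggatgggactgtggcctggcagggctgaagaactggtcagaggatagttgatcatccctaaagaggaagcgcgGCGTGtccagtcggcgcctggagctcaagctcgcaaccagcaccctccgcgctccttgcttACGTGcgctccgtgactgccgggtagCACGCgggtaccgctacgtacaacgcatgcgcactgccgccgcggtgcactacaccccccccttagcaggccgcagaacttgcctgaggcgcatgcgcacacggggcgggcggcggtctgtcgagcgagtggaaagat
The Aldoc window held 3 matches, the Pfkfb4 window 1, the Ldha window 7 and the Pgam1 window 3. The RefSeq start of the Ldha window lies 4329 bases from the outermost start of the gene in the count files. RefSeq windows were matched for 33 of the 36 genes, and none was matched for Slc2a3, Epas1 and Ndrg1. Of the 46 windows of these 33 genes 37 held a match (80.4%), against 14380 of 32851 windows of all genes (43.8%). The windows of the 33 genes also had more G and C, with a median of 61.8% against 52.7% over all windows, and the part of base composition in the share with a match was not tested. The nearest windows of Hk1, Gpi1, Aldoa, Tpi1, Eno2, Pkm and Car12 held no match. Other windows did for Hk1 (1 of 2 windows), Aldoa (2 of 3) and Pkm (1 of 2), while Gpi1, Tpi1, Eno2 and Car12 have 1 window each. The RefSeq start of the nearest Aldoa window lies 8458 bases from the outermost start of the gene in the count files.

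Library totals were 21914913 to 24424964 counts in P53ERTAM Combo, 13484873 to 19461986 in P53ERTAM Vehicle, 14433361 to 17601245 in EV Combo and 20431888 to 23188928 in EV Vehicle tumors. The 3 EV Combo libraries stood apart: the noncoding transcript Gm26917 took 10.7 to 11.1% of their counts, against 0.133 to 1.10% in the other 9. Genes annotated as protein-coding took 80.9 to 81.6% of counts in EV Combo and 86.6 to 95.8% in the rest. Trp53, the gene of p53, averaged 61.1 ± 3.72 CPM in P53ERTAM Combo, 51.5 ± 4.53 in P53ERTAM Vehicle, 46.5 ± 5.99 in EV Combo and 45.7 ± 8.08 in EV Vehicle tumors (SD, n = 3). Cdkn1a, the cell cycle inhibitor that p53 induces, averaged 181 CPM in P53ERTAM Combo, 122 in P53ERTAM Vehicle, 33.8 in EV Combo and 32.8 in EV Vehicle tumors. Cell type markers differed between groups as well. Epithelial markers summed to 1557 to 1965 CPM in P53ERTAM Combo, 1215 to 1675 in P53ERTAM Vehicle, 1660 to 2009 in EV Combo and 2532 to 3427 in EV Vehicle tumors. Fibroblast markers summed to 1013 to 1512, 1103 to 2934, 743 to 1439 and 372 to 407 CPM in the same order of groups, and endothelial markers to 119 to 180, 94.1 to 147, 71.5 to 133 and 35.9 to 72.1 CPM. Macrophage markers summed to 842 to 1218, 351 to 416, 278 to 380 and 218 to 470 CPM. The neutrophil, T cell, erythroid, adipocyte and skeletal muscle lists summed to at most 69.0 CPM in every library, and no skeletal muscle marker reached the count needed for testing.

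Per transcript length, the genes spanned a wide range. On the TPM scale, which divides by the gene length in the files, the mean over the 12 tumors ran from 4.65 TPM for Slc2a3 to 1072 TPM for Tpi1. The most abundant after Tpi1 were the core enzymes Gapdh (991 TPM), Pkm (722 TPM), Aldoa (672 TPM) and Ldha (559 TPM). Isoforms that serve the same step differed in level. Slc2a1, the widespread glucose transporter, stood at 223 ± 29.1, 258 ± 73.3, 132 ± 67.5 and 153 ± 41.2 TPM in P53ERTAM Combo, P53ERTAM Vehicle, EV Combo and EV Vehicle tumors, where the high-affinity transporter Slc2a3 stood at 7.45 ± 1.13, 7.17 ± 2.44, 2.45 ± 0.73 and 1.54 ± 0.51 TPM (SD, n = 3 in each group). For aldolase, the muscle-type Aldoa stood at 696 ± 117, 601 ± 160, 579 ± 149 and 813 ± 175 TPM in the same order, and the brain-type Aldoc at 489 ± 60.5, 249 ± 83.5, 75.2 ± 17.3 and 76.5 ± 12.8 TPM. Aldoc thus came nearest to its partner in P53ERTAM Combo tumors. Of the HIF alpha subunits, Epas1 had the higher mean with P53ERTAM, at 98.8 ± 5.04 and 79.8 ± 10.3 TPM in P53ERTAM Combo and P53ERTAM Vehicle tumors, where Hif1a had 88.4 ± 7.60 and 61.9 ± 22.9 TPM. In EV Combo and EV Vehicle tumors Epas1 had 44.1 ± 8.32 and 35.2 ± 7.13 TPM and Hif1a 71.4 ± 3.85 and 71.8 ± 10.4 TPM.

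Comparisons between groups used edgeR's quasi-likelihood test on the counts of all 17970 genes, with Benjamini-Hochberg adjustment over all of them, and a gene is called at an adjusted p below 0.05. Levels in single tumors are CPM with TMM scaling, and ± after a log2 fold change is its standard error. Each call was refitted 12 times with 1 library left out each time, and a call that ended in any refit is named with those libraries.

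The first question is how tumors with P53ERTAM differed from EV tumors under the same treatment. Under Vehicle the facilitative transporter Slc2a3, the bifunctional regulators of phosphofructokinase Pfkfb3 and Pfkfb4, the brain-type isoenzymes Aldoc and Eno2, the HIF alpha subunit Epas1, Pfkm and Ankrd37 were higher in P53ERTAM tumors. Pgam1, Pgk1, Ldhb and Car12 were lower. That is 8 of 36 genes called higher, where 17.9% of all genes tested were, and 4 called lower, where 19.8% were. Under Combo 6 of 36 were called higher (Aldoc, Slc2a3, Epas1, Egln3, Slc16a1 and Eno1), where 22.1% of all genes were, and Pfkp alone was called lower, where 22.0% were. The median log2 fold change of the 36 genes was 0.28 under Vehicle, beside 0.01 over all genes tested, and 0.23 under Combo, beside 0.06 over all. Over the 13905 protein-coding genes tested, which include all 36, the medians were -0.07 under Vehicle and 0.13 under Combo. In all, 33.3% of the 36 genes were called under Vehicle and 19.4% under Combo, beside 37.8% and 44.1% of all genes tested. The 3 P53ERTAM tumors lay wholly above the 3 EV tumors for 10 genes under Vehicle and 9 under Combo, as for 21.7% and 32.3% of all genes, and wholly below for 3 and 1, as for 24.1% and 29.4% of all genes. The comparisons under Vehicle and under Combo share no library, but the same fit of all 12 libraries gave both. They thus share its filter, its scaling and its estimate of the spread.

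**Figure D1:**
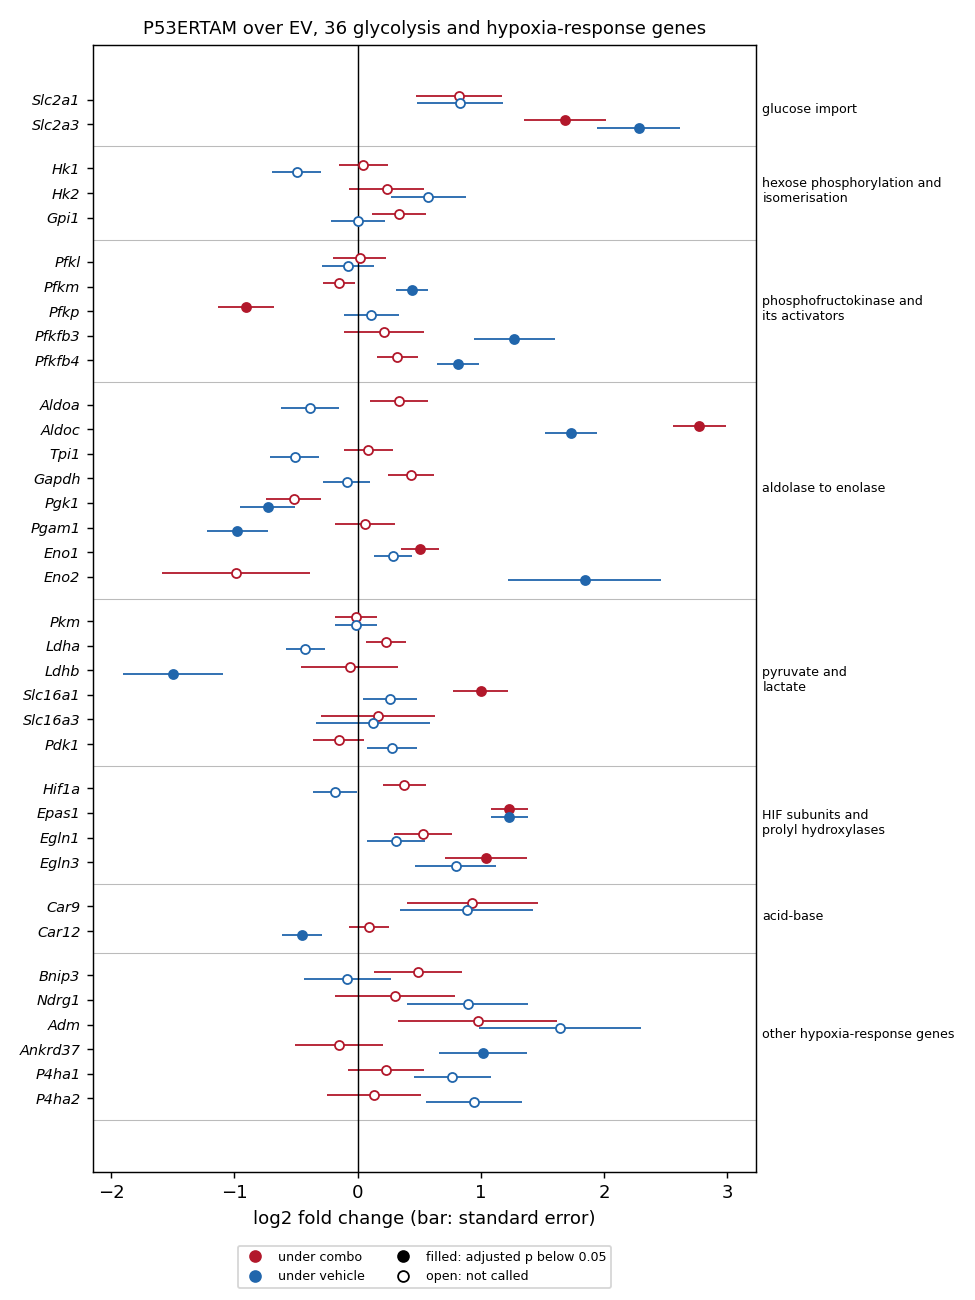
Log2 fold change of P53ERTAM over EV tumors (x axis, 0 is no difference) for the 36 genes (y axis, grouped by role) under Combo (red) and under Vehicle (blue), with the standard error as a bar and filled points for an adjusted p below 0.05. Aldoc, Slc2a3 and Epas1 are filled to the right of 0 in both colours, while Pgam1, Pgk1 and Ldhb are filled to the left under Vehicle.

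Glucose enters the cell through facilitative transporters, and Slc2a3 (GLUT3; ENSMUSG00000003153.10, chromosome 6, 122727809 to 122801640, reverse strand, GRCm38) was the one called. It had 13.7, 15.6 and 18.7 CPM in P53ERTAM Combo, 9.77, 22.0 and 20.4 CPM in P53ERTAM Vehicle, 6.41, 5.27 and 3.36 CPM in EV Combo and 2.56, 4.78 and 3.33 CPM in EV Vehicle tumors. Every P53ERTAM tumor lay above every EV tumor. The log2 fold change was 2.28 ± 0.34 under Vehicle (edgeR adjusted p = 0.000311) and 1.68 ± 0.33 under Combo (adjusted p = 0.0014). In the Combo comparison 5 of 6 macrophage, 2 of 4 neutrophil and 4 of 4 T cell markers were called higher, and 0 of these under Vehicle. Under Vehicle 4 of 6 fibroblast and 3 of 5 endothelial markers were called higher and 6 of 6 epithelial markers lower. Under Combo these were 1 of 6, 2 of 5 and 2 of 6. The part of these cell types in the Slc2a3 differences was not tested. Slc2a1 (GLUT1) had 267, 201 and 229 CPM in P53ERTAM Combo and 186, 392 and 332 CPM in P53ERTAM Vehicle tumors, against 207, 111 and 75.8 CPM in EV Combo and 120, 203 and 189 CPM in EV Vehicle tumors. Its groups overlapped and it was not called, at 0.83 ± 0.35 under Vehicle (edgeR adjusted p = 0.0808) and 0.82 ± 0.35 under Combo (adjusted p = 0.0756). The hexokinases Hk1 and Hk2, which trap glucose as its phosphate, and the isomerase Gpi1 were called in neither comparison, with log2 fold changes between -0.50 and 0.57.

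Pfkfb3 and Pfkfb4 make and break the sugar phosphate that activates phosphofructokinase. Their relative Pfkfb1, which is not among the 36, was lower in P53ERTAM tumors, at -1.73 ± 0.30 under Combo and -1.80 ± 0.31 under Vehicle, and Pfkfb2 lay at -0.55 ± 0.19 and 0.22 ± 0.19. Pfkfb4 (ENSMUSG00000025648.17, chromosome 9, 108991778 to 109032228, forward strand) had 12.7, 15.6 and 13.5 CPM in P53ERTAM Vehicle tumors, against 8.14, 9.17 and 6.46 CPM in EV Vehicle tumors, with no overlap. The log2 difference was 0.81 ± 0.17 (edgeR adjusted p = 0.00287). Under Combo it had 17.2, 16.1 and 16.6 CPM in P53ERTAM and 14.9, 12.7 and 12.2 CPM in EV tumors, also without overlap, and was not called. Pfkfb3 had 83.2, 180 and 122 CPM in P53ERTAM Vehicle tumors, against 45.9, 70.3 and 42.5 CPM in EV Vehicle tumors, 1.27 ± 0.33 higher in log2 (edgeR adjusted p = 0.0103). That call ended without P53ERTAM Vehicle 2, at the highest refitted adjusted p of 0.0564. Among the subunits of phosphofructokinase itself, Pfkm rose by 0.44 ± 0.13 under Vehicle (edgeR adjusted p = 0.0156), a call that ended without P53ERTAM Vehicle 3 (adjusted p = 0.0617). The platelet-type subunit Pfkp had 190, 157 and 172 CPM in P53ERTAM Combo tumors, against 445, 272 and 258 CPM in EV Combo tumors, the only gene of the 36 called lower under Combo, at -0.91 ± 0.23 (edgeR adjusted p = 0.00636). The liver-type Pfkl was called in neither comparison. Pfkm overlaps Senp1 and Pfkp overlaps Pitrm1 on the opposite strand, and since the strand setting of the counting is not stated, their counts cannot be told from those of these partners in the overlaps.

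The steps from aldolase to enolase held genes called in both directions. Aldoc (ENSMUSG00000017390.15, chromosome 11, 78322968 to 78327781, forward strand), whose product splits the phosphorylated hexose, had 410, 508 and 501 CPM in P53ERTAM Combo, 248, 203 and 340 CPM in P53ERTAM Vehicle, 87.1, 66.7 and 54.2 CPM in EV Combo and 94.2, 77.4 and 67.2 CPM in EV Vehicle tumors. All 6 P53ERTAM tumors lay above all 6 EV tumors with the lowest of them at 203 and the highest EV tumor at 94.2 CPM. Its log2 fold change was 2.77 ± 0.22 under Combo (edgeR adjusted p = 2.77e-06) and 1.73 ± 0.21 under Vehicle (adjusted p = 0.000106). Aldoa, by contrast, was called in neither comparison, at 0.34 ± 0.24 under Combo and -0.38 ± 0.24 under Vehicle.

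Pgam1 (ENSMUSG00000011752.6, chromosome 19, 41911871 to 41918664, forward strand), which moves the phosphate of phosphoglycerate, had 61.5, 52.0 and 87.0 CPM in P53ERTAM Vehicle tumors, against 104, 151 and 141 CPM in EV Vehicle tumors. These did not overlap, and Pgam1 fell by 0.98 (log2, SE 0.24, edgeR adjusted p = 0.00804). Under Combo it had 82.2, 62.5 and 81.3 CPM in P53ERTAM and 88.2, 81.6 and 46.9 CPM in EV tumors, with a log2 fold change of 0.06 ± 0.24. Pgk1, the kinase that makes the first ATP of the pathway, fell by 0.73 under Vehicle (SE 0.23, edgeR adjusted p = 0.0226), with 90.9, 115 and 138 CPM in P53ERTAM Vehicle tumors, against 150, 231 and 188 CPM in EV Vehicle tumors. That call ended without EV Vehicle 2, EV Vehicle 3, P53ERTAM Vehicle 1 or P53ERTAM Vehicle 2, with refitted log2 fold changes of -0.89 to -0.54 and an adjusted p of up to 0.10.

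Eno2, the neuronal enolase, varied widely between tumors. It had 25.7, 75.6 and 51.1 CPM in P53ERTAM Vehicle tumors, against 6.76, 22.9 and 12.8 CPM in EV Vehicle tumors, 1.84 ± 0.62 higher in log2 (edgeR adjusted p = 0.0367). It was called in 5 of the 12 refits, and the call ended without EV Vehicle 1 or 3, P53ERTAM Vehicle 2 or 3, or any 1 of the P53ERTAM Combo tumors, with log2 fold changes of 1.44 to 2.39 and an adjusted p of up to 0.147. Eno1, the main enolase, was called under Combo, with 473, 412 and 418 CPM in P53ERTAM Combo tumors, against 373, 305 and 239 CPM in EV Combo tumors. Its log2 fold change was 0.51 ± 0.16 (edgeR adjusted p = 0.0182), and the call ended without EV Combo 3 or P53ERTAM Combo 1, with values of 0.36 to 0.68 and an adjusted p of up to 0.0749. Eno1 also lost its call in a fit of protein-coding genes alone, which changes both the scaling and the genes tested. Tpi1 and Gapdh were called in neither comparison. Reads of Gapdh, Eno1, Pgk1, Ldha, Pkm and Aldoa can be shared with near-identical copies elsewhere in the genome, and their counts are uncertain to that extent.

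At the end of the pathway, Pkm, which makes pyruvate, lay close to 0 in both comparisons, at -0.01 ± 0.17 under Combo and -0.02 ± 0.17 under Vehicle. Lactate dehydrogenase interconverts pyruvate and lactate. Its A subunit Ldha was called in neither comparison, and its B subunit Ldhb had 8.77, 13.7 and 20.6 CPM in P53ERTAM Vehicle tumors, against 29.9, 28.0 and 63.8 CPM in EV Vehicle tumors. Ldhb fell by 1.5 (log2, SE 0.40, edgeR adjusted p = 0.012), although 1 EV Vehicle tumor stood well above the other 2. That call ended without EV Vehicle 3, P53ERTAM Vehicle 1 or P53ERTAM Vehicle 2, with values of -1.86 to -0.99 and an adjusted p of up to 0.0562. The lactate and pyruvate transporter Slc16a1 (MCT1) had 186, 199 and 184 CPM in P53ERTAM Combo tumors, against 104, 115 and 65.3 CPM in EV Combo tumors. The groups were separate, and its log2 fold change was 0.999 ± 0.22 (edgeR adjusted p = 0.00335). Slc16a3 (MCT4), the exporter that HIF induces, and Pdk1, the kinase that shuts pyruvate dehydrogenase, were called in neither.

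Among the HIF genes, Epas1 (ENSMUSG00000024140.9, chromosome 17, 86753907 to 86833410, forward strand) had 157, 160 and 148 CPM in P53ERTAM Combo, 129, 139 and 150 CPM in P53ERTAM Vehicle, 71.7, 52.2 and 74.5 CPM in EV Combo and 55.0, 72.4 and 51.1 CPM in EV Vehicle tumors. The P53ERTAM tumors were about alike under either treatment and all lay above the EV tumors. Its log2 fold change was 1.23 ± 0.15 in both comparisons (edgeR adjusted p = 4.54e-05 under Combo and 0.000101 under Vehicle). Epas1 is strongly expressed by endothelium, and 3 of 5 endothelial markers were called higher in P53ERTAM tumors under Vehicle and 2 of 5 under Combo. In these bulk samples more cells of a type and more RNA per cell cannot be told apart, and the part of endothelium in the Epas1 difference was not tested. Hif1a was called in neither comparison, at 0.38 ± 0.18 under Combo and -0.19 ± 0.18 under Vehicle, and its counts cannot be told from those of its antisense neighbour Gm15283. Of the oxygen-sensing prolyl hydroxylases, Egln3 had 381, 326 and 353 CPM in P53ERTAM Combo tumors, against 260, 174 and 82.5 CPM in EV Combo tumors. It was called, at 1.04 ± 0.33 (edgeR adjusted p = 0.0249), and the call ended without EV Combo 2, P53ERTAM Combo 1 or P53ERTAM Combo 3, with values of 0.70 to 1.46 and an adjusted p of up to 0.0681. Egln1 was called in neither.

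The carbonic anhydrases Car9 and Car12 handle acid at the cell surface. Car9 was low, at 2.42 to 15.6 CPM over the 12 tumors, and was called in neither comparison. Car12 had 263, 238 and 374 CPM in P53ERTAM Vehicle tumors, against 335, 415 and 450 CPM in EV Vehicle tumors, which overlapped. Its call under Vehicle (-0.46 ± 0.16, edgeR adjusted p = 0.0398) held in 4 of the 12 refits, with values of -0.68 to -0.33 and an adjusted p of up to 0.16. It ended without EV Vehicle 2 or 3, EV Combo 2, P53ERTAM Vehicle 1 or 2, or any 1 of the P53ERTAM Combo tumors.

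Of the other hypoxia-response genes, Ankrd37, a small HIF target, was the only one called. It had 49.6, 79.3 and 55.3 CPM in P53ERTAM Vehicle tumors, against 21.4, 40.8 and 28.8 CPM in EV Vehicle tumors, without overlap, at 1.02 ± 0.36 (edgeR adjusted p = 0.0414). The call held in 5 of the 12 refits and ended without EV Vehicle 1 or 3, EV Combo 2, P53ERTAM Vehicle 2 or 3, or P53ERTAM Combo 1 or 3, with values of 0.79 to 1.31 and an adjusted p of up to 0.165. Adm (the vasodilator adrenomedullin), Ndrg1 (a stress-induced gene), and P4ha1 and P4ha2 (collagen prolyl hydroxylases) had log2 fold changes of 0.77 to 1.64 under Vehicle and 0.13 to 0.97 under Combo, all without a call. Adm, at 1.64 ± 0.66, had an edgeR adjusted p of 0.0684, with 21.1, 46.7 and 50.1 CPM in P53ERTAM Vehicle tumors, against 4.64, 21.1 and 11.8 CPM in EV Vehicle tumors. Bnip3, the mitophagy receptor, lay at -0.08 ± 0.35 under Vehicle and 0.49 ± 0.36 under Combo.

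**Figure D2:**
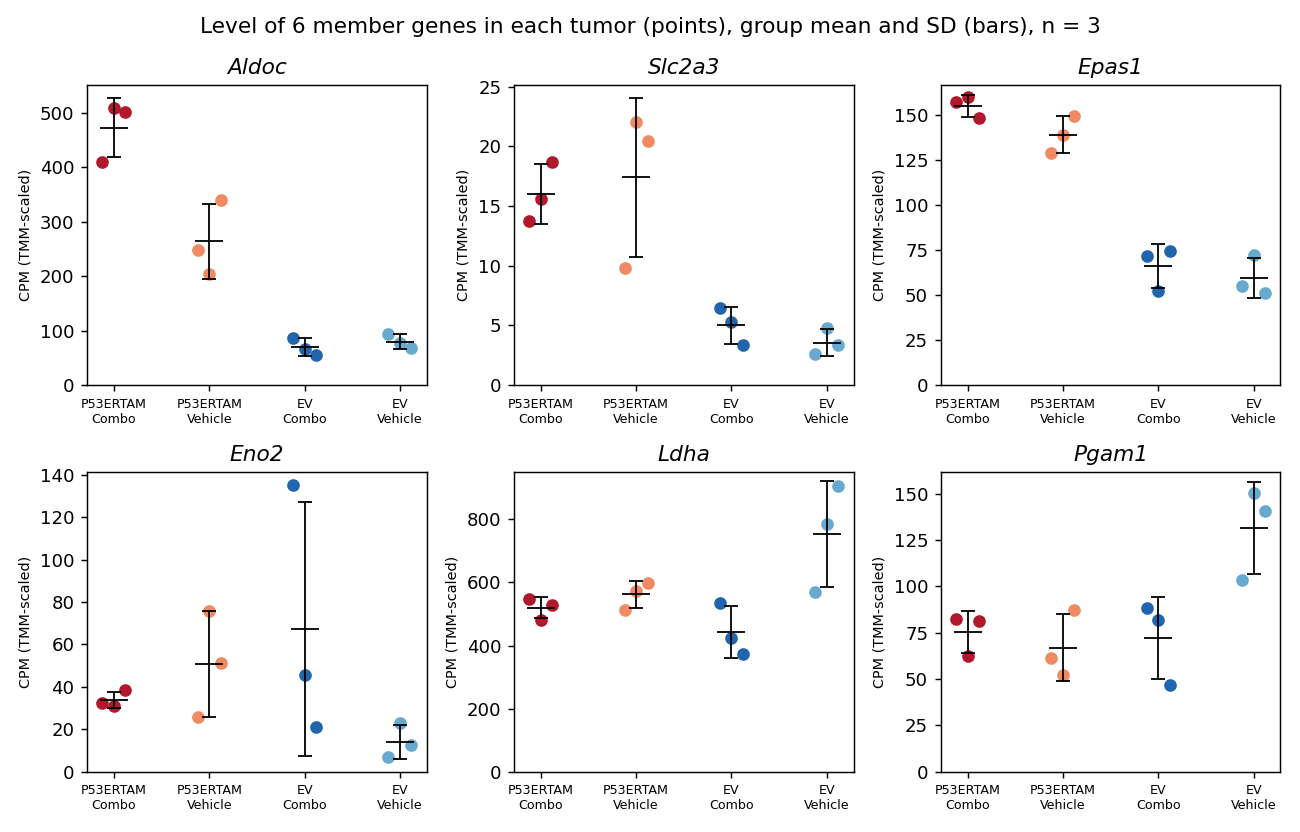
Level of 6 genes (y axes, CPM with TMM scaling) in each of the 12 tumors (points) by group (x axis), with the group mean and SD as bars (n = 3). Aldoc, Slc2a3 and Epas1 are higher in all P53ERTAM tumors than in all EV tumors. Ldha and Pgam1 are lower in EV Combo than in EV Vehicle tumors, and 1 EV Combo tumor stands apart for Eno2 at 135 CPM.

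The second question is how tumors under Combo differed from those under Vehicle within each vector, in comparisons that each share a group of tumors with the preceding ones. In EV tumors Aldoa, Tpi1, Gapdh and Pgam1, which act between the splitting of the sugar and enolase, and Ldha and Slc16a1, which make and move lactate, were lower under Combo. Eno2, Pfkfb4, Pfkp and Pfkm were higher. That is 6 of 36 genes called lower, where 21.1% of all genes tested were, and 4 called higher, where 18.8% were. The median log2 fold change of the 36 was -0.17, beside -0.07 over all genes and -0.13 over protein-coding genes. In P53ERTAM tumors Aldoc was called higher, 1 of 36 where 3.30% of all genes were, and 0 were called lower, where 2.98% were. At an unadjusted p below 0.05 the edgeR test gave 3 higher and 1 lower there, and the share of all genes at that level was not counted. DESeq2 called 2 of the 36 higher and 1 lower, where it called 1142 higher and 1211 lower over all genes. Limma-voom called 3 higher and 0 lower, where it called 1861 and 1887 over all genes. The median in P53ERTAM tumors was -0.07, beside 0.005 over all genes and 0.06 over protein-coding genes. In all, 2.78% of the 36 genes were called in P53ERTAM tumors and 27.8% in EV tumors, beside 6.28% and 39.9% of all genes. Combo tumors lay wholly above Vehicle tumors for 4 genes in P53ERTAM and 2 in EV tumors, as for 17.6% and 23.6% of all genes, and wholly below for 2 and 4, as for 15.4% and 26.9% of all genes.

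**Figure D3:**
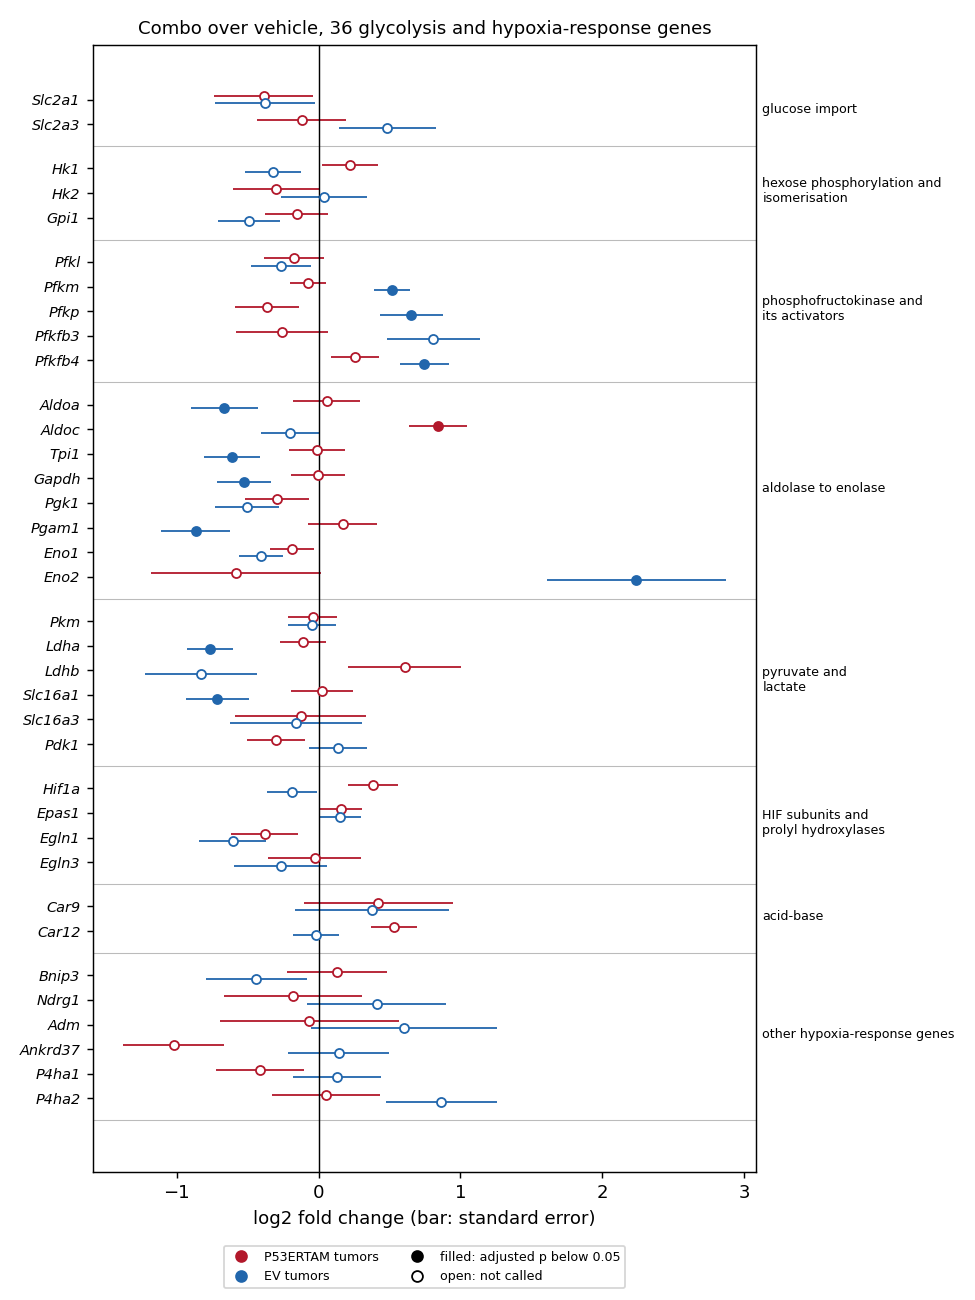
Log2 fold change of Combo over Vehicle (x axis, 0 is no difference) for the 36 genes (y axis, grouped by role) in P53ERTAM tumors (red) and in EV tumors (blue), with the standard error as a bar and filled points for an adjusted p below 0.05. Aldoc is the one filled point in red, while 10 genes are filled in blue, 6 of them to the left of 0.

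Ldha (ENSMUSG00000063229.15, chromosome 7, 46841475 to 46855627, forward strand) was the clearest of the falls in EV tumors. It had 534, 424 and 374 CPM in EV Combo tumors, against 571, 785 and 905 CPM in EV Vehicle tumors, with no overlap, and fell by 0.76 (log2, SE 0.16, edgeR adjusted p = 0.00281). In P53ERTAM tumors it had 548, 482 and 530 CPM under Combo, against 513, 574 and 598 CPM under Vehicle, at -0.11 ± 0.16. Pgam1 had 88.2, 81.6 and 46.9 CPM in EV Combo tumors, against 104, 151 and 141 CPM in EV Vehicle tumors, and fell by 0.87 (SE 0.24, edgeR adjusted p = 0.0138). That call ended without EV Vehicle 2, at an adjusted p of 0.0553. Slc16a1 had 104, 115 and 65.3 CPM in EV Combo tumors, against 156, 165 and 146 CPM in EV Vehicle tumors, and fell by 0.71 (SE 0.22, edgeR adjusted p = 0.0219). It lost its call without EV Vehicle 2 or EV Combo 3, with values of -0.88 to -0.51 and an adjusted p of up to 0.0758.

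Aldoa, Tpi1 and Gapdh, all among the most abundant of the 36, fell by 0.66, 0.61 and 0.53 under Combo in EV tumors (SE 0.24, 0.20 and 0.19; edgeR adjusted p = 0.0405, 0.0272 and 0.0398). Gapdh, which oxidises glyceraldehyde phosphate, had 1193, 938 and 816 CPM in EV Combo tumors, against 1195, 1566 and 1483 CPM in EV Vehicle tumors. EV Combo 1 thus stood next to the lowest EV Vehicle tumor. All 3 calls ended without EV Vehicle 2 or 3 or EV Combo 2 or 3. The Aldoa call ended also without P53ERTAM Vehicle 2, P53ERTAM Combo 1 or P53ERTAM Combo 3, and the Gapdh call without any 1 of the P53ERTAM Combo tumors. The refitted values were -0.88 to -0.49 for Aldoa, -0.80 to -0.45 for Tpi1 and -0.69 to -0.41 for Gapdh, with adjusted p of up to 0.144, 0.115 and 0.141. All 3 calls were absent in the fit of protein-coding genes alone. That fit tests 13923 genes with its own scaling, shifts the values in this comparison by a median of 0.13 on the log2 scale, and calls 18.1% of its genes higher and 17.7% lower.

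Among the genes that were higher under Combo in EV tumors, Pfkfb4 had 14.9, 12.7 and 12.2 CPM in EV Combo tumors, against 8.14, 9.17 and 6.46 CPM in EV Vehicle tumors. The groups were separate, at 0.75 ± 0.17 (edgeR adjusted p = 0.00453). Pfkm had 41.4, 33.2 and 34.2 CPM in EV Combo tumors, against 25.4, 24.3 and 26.2 CPM in EV Vehicle tumors, at 0.52 ± 0.13 (edgeR adjusted p = 0.00626). Both calls held in all 12 refits. Pfkp rose by 0.66 ± 0.23 (edgeR adjusted p = 0.0344), but its groups overlapped, and the call ended without EV Vehicle 1, EV Vehicle 2 or EV Combo 1, with values of 0.36 to 0.89 and an adjusted p of up to 0.178. Eno2 had 135, 45.5 and 21.1 CPM in EV Combo tumors, against 6.76, 22.9 and 12.8 CPM in EV Vehicle tumors, at 2.24 ± 0.63 (edgeR adjusted p = 0.0147). Its lowest EV Combo value lay under its highest EV Vehicle value, and the call ended without EV Vehicle 1, EV Vehicle 3 or EV Combo 1, with values of 1.23 to 2.80 and an adjusted p of up to 0.0849.

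In P53ERTAM tumors Aldoc had 410, 508 and 501 CPM under Combo, against 248, 203 and 340 CPM under Vehicle. The groups did not overlap, and it rose by 0.84 ± 0.20 (edgeR adjusted p = 0.032). The call held in 7 of the 12 refits and ended without P53ERTAM Vehicle 1 or 2 or any 1 of the P53ERTAM Combo tumors, with values of 0.69 to 1.07 and an adjusted p of up to 0.127. Ankrd37 had 34.1, 25.5 and 30.9 CPM under Combo, against 49.6, 79.3 and 55.3 CPM under Vehicle, which did not overlap either, at -1.02 ± 0.36 (edgeR adjusted p = 0.104). All 6 macrophage markers were called higher under Combo in P53ERTAM tumors, and their part in the Aldoc difference was not tested.

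The third question is whether the effect of Combo differed between the vectors, which the interaction term tests as the log2 fold change in P53ERTAM tumors minus that in EV tumors. It was higher in P53ERTAM for Aldoc, Pgam1 and Ldha, 3 of 36 where 18.8% of all genes were called higher, and lower for Eno2, Pfkp and Pfkm, 3 of 36 where 17.2% were called lower. The median over the 36 genes was 0.07, beside 0.13 over all genes and 0.23 over protein-coding genes. Aldoc had an interaction of 1.04 ± 0.29 (edgeR adjusted p = 0.014), from 0.84 ± 0.20 in P53ERTAM tumors and -0.20 ± 0.20 in EV tumors, and this call held in all 12 refits. Pgam1 also had 1.04 ± 0.34 (edgeR adjusted p = 0.0328), and Ldha 0.65 ± 0.23 (adjusted p = 0.0399). The Pgam1 call held in 5 and the Ldha call in 3 of the 12 refits, with values of 0.80 to 1.28 and 0.48 to 0.81. The Pgam1 call ended without EV Vehicle 2 or 3, EV Combo 3, P53ERTAM Vehicle 1 or 2, or P53ERTAM Combo 1 or 3, at an adjusted p of up to 0.0879. The Ldha call ended without these libraries and also without EV Combo 2 or P53ERTAM Combo 2, at up to 0.108. Both calls ended in the fit of protein-coding genes alone and with the replicate block, that of Ldha also with DESeq2 size factors and that of Pgam1 without a filter on low counts. Eno2 stood at -2.83 ± 0.86 (edgeR adjusted p = 0.0251), Pfkp at -1.02 ± 0.32 (adjusted p = 0.0255) and Pfkm at -0.60 ± 0.18 (adjusted p = 0.021). All 3 calls ended without EV Combo 1, at -1.81 for Eno2, -0.72 for Pfkp and -0.48 for Pfkm. The Pfkp call ended also without P53ERTAM Vehicle 2 or P53ERTAM Combo 2 or 3, at up to 0.0755, and the Eno2 call without EV Vehicle 1 or 3, P53ERTAM Vehicle 2 or any 1 of the P53ERTAM Combo tumors, at up to 0.0713.

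Tumors of 1 group differed in these genes, most in EV Combo and least in P53ERTAM Combo. The ratio of the highest to the lowest tumor of a group had a median over the 36 genes of 1.24 in P53ERTAM Combo, 1.58 in P53ERTAM Vehicle, 1.90 in EV Combo and 1.62 in EV Vehicle tumors. Over all genes the medians were 1.22, 1.43, 1.33 and 1.41. The variation ran the same way across many of the genes. EV Combo 1 was the highest of its group for 34 of the 36 genes, where it was so for 32.9% of all genes, and EV Combo 3 was the lowest for 32, where it was so for 35.7%. P53ERTAM Vehicle 1 was the lowest of its group for 31 genes, and P53ERTAM Combo 2 and EV Vehicle 1 were each the lowest for 28, where they were so for 27.5%, 35.8% and 30.8% of all genes.

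Adm, Eno2, Slc16a3, Car9 and Ndrg1 spread most in EV Combo tumors. Adm had 40.2, 11 and 6.1 CPM there, a ratio of 6.60 between the highest and the lowest tumor. Slc16a3 had 136, 72.7 and 26.2 CPM, Ndrg1 had 670, 209 and 182 CPM, and Car9 had 12.1, 2.46 and 3.76 CPM. In each, EV Combo 1 was the highest. In P53ERTAM Combo tumors the same genes had 48.0, 27.2 and 37.3 CPM (Adm), 82.8, 71.1 and 109 CPM (Slc16a3), 544, 347 and 416 CPM (Ndrg1) and 15.6, 10.9 and 8.55 CPM (Car9), with ratios of up to 1.82.

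**Figure D4:**
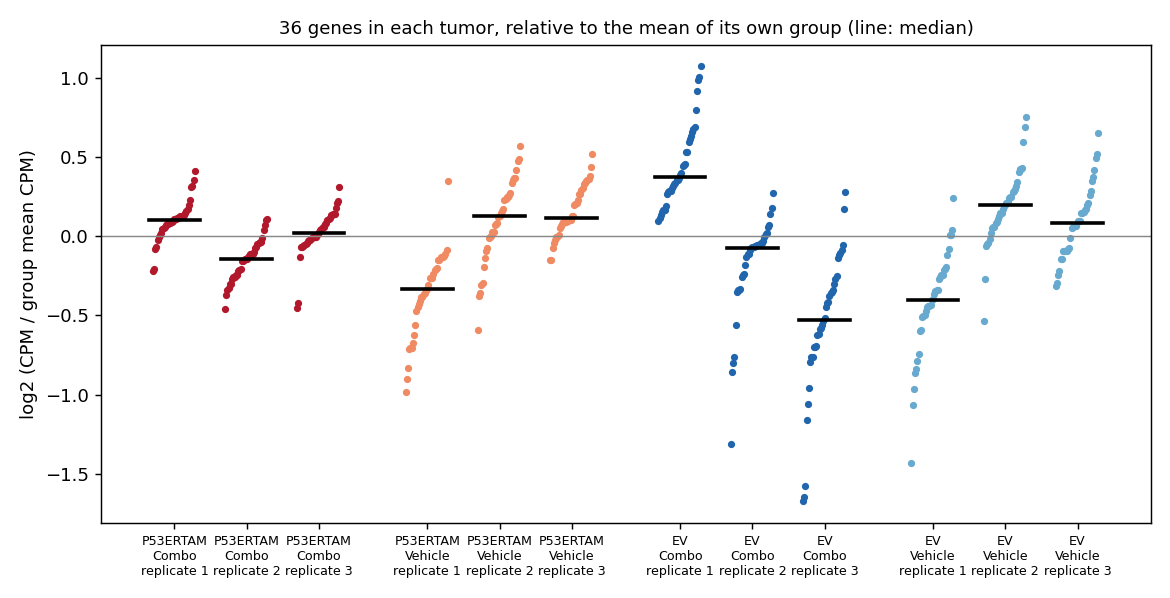
Log2 ratio of each of the 36 genes (points) to the mean of its own group (y axis, 0 is the group mean) in each of the 12 tumors (x axis, by group), with the median as a black line. The medians span 0.38 to -0.53 in EV Combo tumors and 0.10 to -0.14 in P53ERTAM Combo tumors.

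Leaving out EV Combo 1, the highest of its group for most of the 36 genes, moved the counts. Since this tumor was picked by its levels of these genes, lower EV Combo values without it follow from the choice. Without it, 11 of the 36 genes were called lower and 2 higher under Combo in EV tumors (median log2 fold change -0.48), where 15.9% of all genes were lower and 14.6% higher in that refit (median -0.08), with Gpi1, Pgk1, Eno1, Egln1 and Bnip3 added to the 6 that fell with all libraries. Pfkp and Eno2 were no longer called. P53ERTAM against EV under Combo then gave 14 genes higher (median 0.58), where 17.7% of all genes were (median 0.07), among them Adm at 2.15, Car9 at 1.90, Egln3 at 1.46, Slc2a1 at 1.32 and Ndrg1 at 1.16. P53ERTAM against EV under Vehicle, which holds no EV Combo library, also gave 13 higher in that refit, where 16.7% of all genes were. Adm stood there at 1.64 with and without EV Combo 1. Leaving out EV Combo 3, the lowest for most of the 36 genes, moved the medians the other way. They were then 0.0454 for Combo in EV tumors and 0.0709 for P53ERTAM against EV under Combo. Without EV Combo 3, 6 of the 36 genes were called higher under Combo in EV tumors, against 4 with all libraries. Aldoa, Tpi1, Gapdh and Slc16a1 were no longer called lower. With 1 library left out, 2721 to 3524 of all genes were called higher in this comparison. 

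Genes of neighbouring pathways were counted in the same fit. Under Vehicle all 7 genes of the pentose phosphate pathway were lower in P53ERTAM tumors, among them the transketolase Tkt at -1.33 ± 0.14 and the first enzyme G6pdx at -1.16 ± 0.16 (edgeR adjusted p = 3.84e-05 and 0.000226). Of 17 citric acid cycle genes 15 were lower. Among those of smallest p were the isocitrate dehydrogenase subunits Idh3g (-1.54 ± 0.18) and Idh3a (-1.02 ± 0.16) and the fumarase Fh1 (-0.85 ± 0.12). Of 18 other glycolysis and pyruvate genes 9 were lower, among them the pyruvate dehydrogenase subunits Pdha1 (-0.74 ± 0.09) and Dld (-0.82 ± 0.11) and the mitochondrial pyruvate carrier Mpc2 (-0.83 ± 0.14), and 3 were higher. These shares stand beside the 19.8% of all genes called lower. All 6 epithelial markers were lower as well in this comparison, 4 of 6 fibroblast markers were higher, and their part in the pathway counts was not tested.

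Of 24 other HIF targets, 7 were higher and 2 lower in P53ERTAM tumors under Vehicle, and 9 higher and 1 lower under Combo, where 17.9% of all genes were higher and 19.8% lower under Vehicle, and 22.1% and 22.0% under Combo. The collagen lysyl hydroxylase Plod2 stood at 0.98 ± 0.21 under Combo and 0.91 ± 0.21 under Vehicle, the glycoprotein hormone gene Stc1 at 1.21 ± 0.25 in both, and the lysyl oxidase Loxl2 at 1.23 ± 0.27 and 1.14 ± 0.27. Plod1 stood at 1.07 ± 0.25 and 1.33 ± 0.26, and the mitophagy receptor Bnip3l at 0.95 ± 0.17 and 0.68 ± 0.17 (Combo, then Vehicle). Fibroblasts express several of these collagen-modifying enzymes, and 1 of 6 fibroblast markers was called higher under Combo and 4 of 6 under Vehicle, with median log2 fold changes of 0.33 and 1.17. Their part in these differences was not tested. Of the HIF machinery, Vhl, the ligase subunit that marks HIF alpha for destruction, was higher under Combo (0.80 ± 0.14) and under Vehicle (0.63 ± 0.13), and Egln2 was higher under Combo (0.62 ± 0.12). The third of 7 called higher under Combo was Hif3a, which rests on a few reads, at 0.24, 0.69 and 0.39 CPM in P53ERTAM Combo tumors, against 0, 0.14 and 0 CPM in EV Combo tumors, and passed the filter through the groups where it is higher. Under Combo 1 pentose phosphate gene was lower (Tkt, -0.74 ± 0.13), and citric acid cycle genes were split, 3 higher and 3 lower. Of 10 gluconeogenesis and glycogen genes 2 were higher in each comparison and 3 lower under Vehicle. Fbp2, the muscle-type fructose bisphosphatase of gluconeogenesis, was at 10.5 ± 2.17 and 8.75 ± 1.61 TPM in P53ERTAM Combo and P53ERTAM Vehicle tumors, against 1.03 ± 0.66 and 0.56 ± 0.28 TPM in EV Combo and EV Vehicle tumors (SD, n = 3), a log2 fold change of 3.38 ± 0.46 and 3.98 ± 0.48. Its EV levels rest on a few reads, at 0.44, 0.14 and 0.68 CPM under Combo and 0.20, 0.18 and 0.42 CPM under Vehicle. Like Hif3a, Fbp2 passed the filter through the groups where it is higher. The insulin-responsive transporter Slc2a4 was lower in P53ERTAM tumors under Combo, at -3.27 ± 0.50. It too was near the floor, at 0.64, 0.52 and 0.39 CPM in P53ERTAM Combo tumors, against 6.98, 2.89 and 5.24 CPM in EV Combo tumors.

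**Figure D5:**
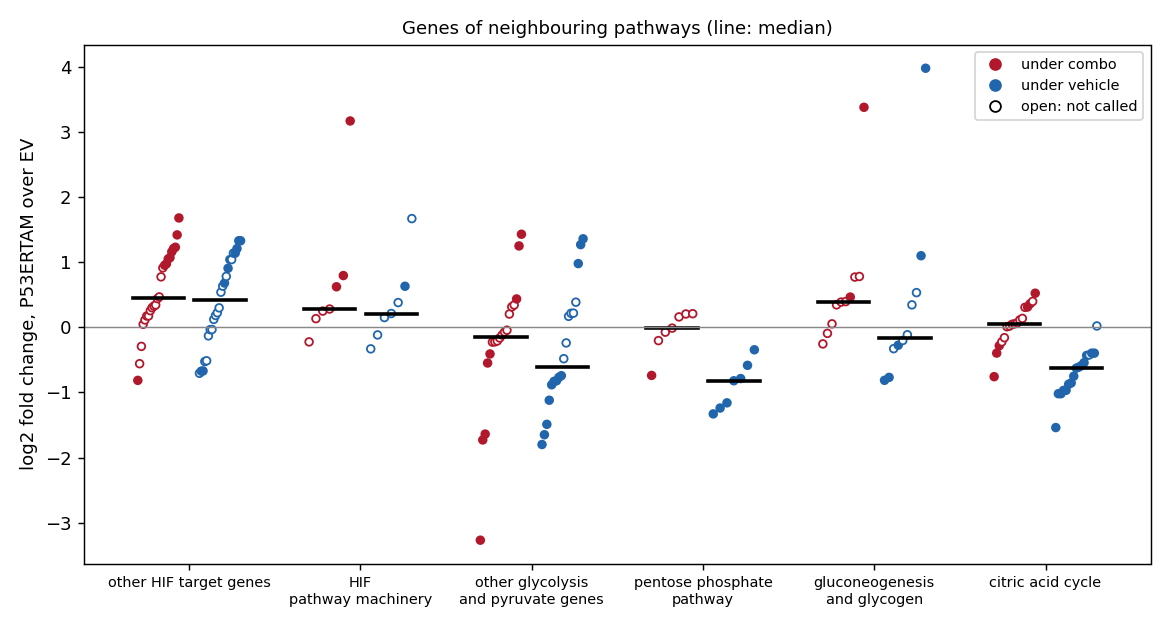
Log2 fold change of P53ERTAM over EV (y axis) for the tested genes of 6 neighbouring pathways (x axis), under Combo (red) and under Vehicle (blue), with open points for genes not called and a line at each median. All 7 pentose phosphate genes lie under 0 in blue, while the red points of that pathway lie around 0.

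Under Combo 10 of 17 citric acid cycle genes and 5 of 7 pentose phosphate genes were lower in EV tumors, where 21.1% of all genes were. Sdhd, an anchor subunit of succinate dehydrogenase, fell by 1.03 (SE 0.12), the citrate synthase Cs by 0.70 (SE 0.09) and the lactonase Pgls by 0.97 (SE 0.14). In P53ERTAM tumors Pgd, an oxidative enzyme of the pentose phosphate pathway, was the one gene of both lists called, higher at 0.52 ± 0.10 (edgeR adjusted p = 0.0168), while 5 citric acid cycle and 3 pentose phosphate genes were higher at an unadjusted p below 0.05. The share of all genes at that unadjusted level was not counted. Of the remaining lists in EV tumors, 3 of 24 other HIF targets, 4 of 7 HIF machinery genes, 6 of 18 other glycolysis and pyruvate genes and 4 of 10 gluconeogenesis and glycogen genes were lower under Combo, while 1 other HIF target and 2 other glycolysis and pyruvate genes were higher, where 18.8% of all genes were. In P53ERTAM tumors the same lists held 4 called genes, all lower under Combo: Hif1an, Siah2, Pdk4 and Pck2. In that comparison, which is also that of the Pgd call, 2.98% of all genes were called lower and 3.30% higher. The interaction was higher in P53ERTAM for 14 of 17 citric acid cycle genes and 6 of 7 pentose phosphate genes, where 18.8% of all genes were. Pdk4, a kinase that shuts pyruvate dehydrogenase, rose under Combo in EV tumors (1.64 ± 0.38) and fell in P53ERTAM tumors (-1.35 ± 0.38, edgeR adjusted p = 0.0497), with an interaction of -3.00 ± 0.54 (edgeR adjusted p = 0.00139). In the same comparison of EV Combo with EV Vehicle tumors the share of counts in protein-coding genes was lower, at 80.9 to 81.6% against 94.9 to 95.8%, and its part in these falls was not tested.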

How the data were processed

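The RNA of 12 tumors (Direct-zol kit) was made into stranded libraries of ribosome-depleted total RNA with an Illumina kit, as the labels' protocols describe. Per the submitters' processing notes, which name no versions, the tools were FastQC, fastp, STAR and featureCounts on GRCm38.p5. The annotation release, the strand setting and the treatment of read pairs are not given in the sources used here. Each deposited file gives unnormalized counts and a summed exon length for every gene, per the file headers. Between 66.3 and 71.7% of the counts from 1 to 20 were even numbers, while 49.2 to 52.1% of those above 200 were. Counting of both mates would give such even numbers, and a library would then hold fewer fragments than its total.

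Gene symbols came from GENCODE M21, which matched 52403 of 52636 identifiers and left 233. Aldoa has 2 identifiers, of which the one sharing its lowest or highest coordinate with the RefSeq gene was used. Of 31622 genes with a count, 17970 passed edgeR's filterByExpr, which kept at least 99.8% of the counts of every library. The fit (R 4.3.3, edgeR 4.0.16) used TMM factors of 0.941 to 1.05 and 4 group means with 8 residual degrees of freedom, and the robust quasi-likelihood F-test with Benjamini-Hochberg adjustment over all genes tested, at 0.05. A standard error is the size of the log2 fold change divided by the square root of F. The script was tested on simulated data. CPM are TMM-scaled, and TPM use the length in the files.

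The alternatives were DESeq2 1.42.0 size factors, a fit and scaling of protein-coding genes alone, no filter, at least 1 CPM in 3 libraries, the DESeq2 test, limma-voom (limma 3.58.1), a fit of only the libraries compared, the replicate number as a block, and leaving out each library in turn. Genes are named if they belong to the set of 36, if they are among the 4 of smallest p of a neighbouring pathway, or as a check of the vector, with markers as lists. Pfkfb2 is named as a relative of Pfkfb3 and Pfkfb4, whatever its p. The 36 genes, the pathway and marker lists and the tests were chosen with earlier results of these data known, and none of them is independent support for a pattern seen before.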

Additional observations from a re-analysis of the deposited data

Results flagged for a closer look

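The effect of Combo differed between the vectors for 6 of the 36 genes, by the interaction term of the edgeR fit (P53ERTAM minus EV, log2 scale). The difference was 1.04 for Aldoc and 1.04 for Pgam1, 0.65 for Ldha, -0.60 for Pfkm, -1.02 for Pfkp and -2.83 for Eno2. Aldoc, with 410, 508 and 501 CPM in P53ERTAM Combo, 248, 203 and 340 CPM in P53ERTAM Vehicle, 87.1, 66.7 and 54.2 CPM in EV Combo and 94.2, 77.4 and 67.2 CPM in EV Vehicle tumors, was the one whose call held in all 12 refits that left out 1 library and under each of the other 7 settings run. For Pgam1 and Ldha the difference came with a fall in EV tumors, at -0.87 and -0.76, and with 0.17 and -0.11 in P53ERTAM tumors. Both calls ended in a fit of protein-coding genes alone and with the replicate block, and in most of the refits that left out 1 library. The protein-coding share of counts was 80.9 to 81.6% in EV Combo tumors, against 94.9 to 95.8% in EV Vehicle tumors, and its part in the loss of these calls was not tested. For Eno2, Pfkp and Pfkm it came with a rise in EV tumors, and all 3 calls ended without EV Combo 1, at values of -1.81, -0.72 and -0.48.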

How the results depend on the processing

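Over the 36 genes and 5 comparisons there were 36 calls, of which 14 held under all settings run, and 0 reversed. Of the 144 pairs of gene and comparison without a call, 40 gained one under some setting. Of the 36 calls 18 ended without a filter, 7 with limma-voom, 7 in a fit of protein-coding genes alone, 6 with only the libraries compared, 6 with the replicate block and 3 with DESeq2 size factors. Numbers are genes of the 36 called. Counts over all genes rest on unlike numbers of genes tested. These are 17970 in the main fit, 13923 with protein-coding genes alone and 31622 without a filter. The fit of only the libraries compared filters anew. For Combo in EV tumors (6 lower and 4 higher) there were 3 lower with protein-coding genes alone, 2 lower and 2 higher without a filter, and 3 lower with only the libraries compared. The same fits called 2467 lower, 3241 lower and 3223 higher, and 2735 lower over all genes, against 3783 lower and 3386 higher. With protein-coding genes alone the 4 genes called higher kept their calls. Pfkfb3 gained one there, higher at 0.93 (edgeR adjusted p = 0.0397). For Combo in P53ERTAM tumors (1 higher and 0 lower) DESeq2 gave 2 higher and 1 lower, limma-voom 3 higher, and the fit of the libraries compared 1 lower. For P53ERTAM against EV under Vehicle (8 higher) there were 5 higher without a filter and 5 with limma-voom, where these fits called 2863 and 2730 higher over all genes, against 3217. Under Combo (6 higher and 1 lower) there were 12 higher with limma-voom, and 2 lower with protein-coding genes alone and with DESeq2. Limma-voom called 5172 higher there over all genes, against 3966. The other 2 fits called 3370 and 4429 lower, against 3952. For the interaction (3 higher and 3 lower) there was 1 higher with protein-coding genes alone, 6 higher with limma-voom, 0 lower without a filter and 5 lower with DESeq2. In the same order these fits called 1961 and 3865 higher and 2844 and 3560 lower over all genes, against 3377 and 3096. Leaving out 1 library gave 2 to 6 higher and 1 to 11 lower for Combo in EV tumors (median log2 fold change -0.48 to 0.0454), 0 to 3 higher and 0 to 1 lower in P53ERTAM tumors (-0.17 to 0.04), 5 to 13 higher and 1 to 7 lower for P53ERTAM under Vehicle (0.21 to 0.41), 4 to 14 higher and 1 to 2 lower under Combo (0.0709 to 0.58), and 1 to 7 higher and 0 to 5 lower for the interaction (-0.0886 to 0.50). With 1 library left out, all genes tested gave 2721 to 3524 higher and 2948 to 4138 lower for Combo in EV tumors. In P53ERTAM tumors they gave 63 to 984 and 14 to 1146. P53ERTAM against EV gave 2209 to 3224 and 2712 to 3483 under Vehicle, and 3001 to 4384 and 2911 to 4256 under Combo. The interaction gave 2317 to 3578 and 2556 to 3256. The cause of these shifts was not tested. Over all genes, Combo in P53ERTAM tumors gave 593 higher and 536 lower, against 1142 and 1211 with DESeq2, 1861 and 1887 with limma-voom and 1068 and 822 with only the libraries compared. The fit of protein-coding genes alone, which tests 13923 genes and changes the scaling too, gave 2522 higher and 2467 lower for Combo in EV tumors, against 3386 and 3783 of 17970, and 1961 higher and 2122 lower for the interaction, against 3377 and 3096. It shifted the values by a median of 0.13 for Combo in EV tumors, by -0.11 for P53ERTAM under Combo and by -0.18 for the interaction.

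Replicate numbers recur in all groups, but same-numbered tumors did not deviate together (correlations of -0.149 to 0.211), not every tumor correlated best with its own number, and the numbers were not taken as pairs. With the replicate block 3 genes were higher and 4 lower for Combo in EV tumors, 7 and 4 for P53ERTAM under Vehicle, and 2 and 3 for the interaction, with the other counts as without it. That fit called 3224 higher and 3565 lower, 2992 and 3349, and 3123 and 2878 over all genes in these 3 comparisons. With 3 tumors a group and a coefficient of variation of 0.221, smaller differences of these genes may not be detectable.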
